A study of Homo sapiens with 4 samples.

Results

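DNA replication and the supply of its nucleotides were followed through 50 genes in NCI-N87 cells, a line from a human gastric carcinoma in which ERBB2 is amplified. The genes were chosen by name, as the members of 11 steps from origin recognition to chromatin assembly, with earlier results of these data known. All 50 were found among the 60612 genes of the deposited table. In 2 libraries the cells carried the lentiviral vector PLVX-IRES-Puro with ZSCAN18, a gene for a SCAN-domain zinc finger protein, and in 2 libraries the same vector without an insert. Cells of both groups were transfected for 24 hours, selected with puromycin for 4 days and held the vector for 5 days in all, so the puromycin and the vector backbone are common to both. The title of the series names proliferation of gastric cancer cells as its subject. ZSCAN18 stood at an FPKM of 116 and 112 in the columns assigned to its group by elimination, and at 0.108 and 0.144 with the empty vector. FPKM is the number of fragments scaled to transcript length and to library size, so levels can be set beside each other between genes. About 23100000 to 24600000 fragments per library were estimated, which at the lowest depth gives a counting error of 6.58% for a 1 kb transcript at an FPKM of 10. All 8 epithelial markers examined were at an FPKM of at least 1 in 2 or more libraries. Below 1 throughout were 5 of 6 fibroblast markers, 3 of 5 immune markers, among them PTPRC, and all 4 endothelial markers, among them PECAM1. The exceptions were COL1A1 (fibroblast, 0.469 to 1.46), CD14 (immune, 0.339 to 1.22) and CD68 (immune, 2.27 to 4.53). The summed level of the 6 fibroblast markers was 2.03 to 2.64 with ZSCAN18 and 0.818 to 1.86 with the empty vector, and that of the 5 immune markers 2.94 to 3.45 and 4.58 to 5.94, most of it CD68. The summed level of the epithelial markers was 3950 to 4170 with ZSCAN18 and 4540 to 4760 with the empty vector, and the part of these differences in the results was not tested. Whether the 2 libraries of a group came from separate cultures is not stated, and the p-values therefore cover no more than the spread between these samples, possibly a technical one.

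Replication starts when the origin recognition complex (ORC1 to ORC6), with CDC6 and CDT1, loads the ring-shaped helicase MCM2 to MCM7 on DNA before S phase, a step called licensing that geminin (GMNN) blocks by binding CDT1. The ring becomes an active helicase once CDC45 and the GINS complex join it. Polymerase alpha with its primase then lays down primers, polymerases delta and epsilon extend them on the clamp PCNA, and FEN1 and LIG1 trim and seal the lagging strand. Many of these genes are transcribed late in G1 phase under E2F transcription factors, and their transcripts are widely used as a sign of proliferating cells.

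The promoters of 3 GINS subunits, of a pair of MCM subunits and of thymidylate synthase are shown because the GINS genes had fold changes on both sides of 0 and because E2F words recur in these windows. Each is the stretch from 200 bases before to 20 after the RefSeq transcription start (GRCh38.p14), written 5′ to 3′ on the strand of the gene, and capitals mark an E2F word. The windows lie at chr2:135876424-135876643 (minus strand), chr7:100101378-100101597 (minus), chr20:25407473-25407692 (plus), chr16:85688935-85689154 (minus), chr16:58392271-58392490 (plus) and chr18:657453-657672 (plus); for MCM7, which has 3 RefSeq starts, the most upstream is shown. In the deposited table the GINS3 model begins further upstream, at position 58295080.
MCM6: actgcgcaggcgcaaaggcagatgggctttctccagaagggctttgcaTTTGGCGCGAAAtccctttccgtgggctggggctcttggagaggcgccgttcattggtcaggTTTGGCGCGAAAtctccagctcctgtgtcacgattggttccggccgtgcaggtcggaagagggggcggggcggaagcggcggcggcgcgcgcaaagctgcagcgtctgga
MCM7: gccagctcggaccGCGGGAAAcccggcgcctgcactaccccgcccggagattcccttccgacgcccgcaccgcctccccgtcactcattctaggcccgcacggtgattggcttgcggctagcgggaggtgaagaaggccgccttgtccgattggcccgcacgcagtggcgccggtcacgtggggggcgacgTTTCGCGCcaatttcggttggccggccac
GINS1: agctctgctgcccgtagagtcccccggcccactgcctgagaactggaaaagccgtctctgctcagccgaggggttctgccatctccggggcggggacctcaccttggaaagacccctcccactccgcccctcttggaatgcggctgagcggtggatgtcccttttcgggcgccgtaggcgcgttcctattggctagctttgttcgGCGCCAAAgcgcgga
GINS2: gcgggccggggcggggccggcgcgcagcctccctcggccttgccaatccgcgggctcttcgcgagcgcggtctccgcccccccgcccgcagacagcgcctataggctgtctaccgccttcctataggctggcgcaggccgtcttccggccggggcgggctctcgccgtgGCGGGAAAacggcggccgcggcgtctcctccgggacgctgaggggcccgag
GINS3: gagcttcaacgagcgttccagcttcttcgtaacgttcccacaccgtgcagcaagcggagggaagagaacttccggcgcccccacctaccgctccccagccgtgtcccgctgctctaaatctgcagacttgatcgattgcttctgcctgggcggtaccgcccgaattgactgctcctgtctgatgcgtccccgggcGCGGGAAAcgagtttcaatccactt
TYMS: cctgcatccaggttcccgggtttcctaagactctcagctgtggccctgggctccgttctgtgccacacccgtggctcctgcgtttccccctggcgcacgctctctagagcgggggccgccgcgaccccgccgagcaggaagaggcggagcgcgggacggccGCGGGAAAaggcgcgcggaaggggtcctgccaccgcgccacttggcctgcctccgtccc

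The E2F words searched were TTTCCCGC, TTTGGCGC, TTTCGCGC and TTTGCCGC on both strands, in windows from 250 bases before to 50 after each RefSeq start. MCM6 held 4 matches that overlap in pairs, and MCM7 held 2, both at the most upstream of its 3 starts. GINS2, TYMS, GINS1 and GINS3 held 1 each. The windows shown were chosen in part for these words, so their presence in each of them is no separate result. RefSeq windows were found for 44 members, and 20 of these genes, or 45.5%, held at least 1 word. The share was 20.4% of the 54 other pathway genes with a window, 7% of the tested genes with a window and 3.99% of all genes with a window. The median log2 fold change with ZSCAN18 was -0.18 over the 20 with a word and -0.17 over the 24 without. The word for the cell cycle element CHR, TTTGAA, was present for 1 member (RRM1), or 2.27%, against 13.2% of tested genes, and CCAAT for 27 members (61.4%) against 43.2% of tested genes. A matching word is not a shown binding site.

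With ZSCAN18 the genes of replication stood slightly and broadly lower. Of the 50 members, 43 had a negative log2 fold change, where 42.9% of the 11822 tested genes did, and the median over the members was -0.19, beside 0.04 over all tested genes. Summed over the members, the FPKM was 1028 and 1033 under ZSCAN18 against 1170 and 1162 under empty vector, which is 11.6% lower. Summed over all 60612 genes, the FPKM was also lower, at 293062 and 296112 under ZSCAN18 against 312147 and 304029 under empty vector. The 11.6% is not corrected for that. Not a single member passed the gene test: 0 of 50 had an adjusted p under 0.05 in limma, where 1.77% of all tested genes did (0.973% lower and 0.795% higher), and the adjusted p of the members ran from 0.0620 to 0.948. At an unadjusted p under 0.05 in limma 23 members were lower and 0 higher, beside 11% and 15.9% of all tested genes, and that count was 13 lower without the first ZSCAN18 library, 13 lower and 1 higher without the first empty vector library and 12 lower without the second. The authors' deposited table marked 0 members as significant (2.23% of tested genes carry the mark). The mark did not follow from a q-value under 0.05 alone. The smallest q-value of a member in that table was 0.104, for MCM5.

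The libraries of the 2 groups did not overlap for 39 members. In 37 members both ZSCAN18 libraries lay below both empty vector libraries, which 24.4% of all tested genes showed, and in 2, ORC4 and GINS3, both lay above, which 35.8% of all tested genes showed. After median-of-ratios scaling 39 members did not overlap and all 39 were lower, and after quantile normalization 36 and 36. ORC4 and GINS3 therefore overlapped under both of these scalings. Scaled without mitochondrial genes, 33 members did not overlap, of which 31 were lower. The median difference between replicate libraries over the members, on log2(FPKM + 1), was 0.07 within ZSCAN18 and 0.06 within the empty vector, and the median size of the fold change was 0.20. In 30 members the fold change was larger than the difference within either group, a property of 48.4% of all tested genes. A log2 fold change of -0.2 or lower was found for 23 members and for 16.8% of all tested genes. In bulk RNA, fewer cells in S phase and less RNA of these genes per cell cannot be told apart.

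**Figure D1:**
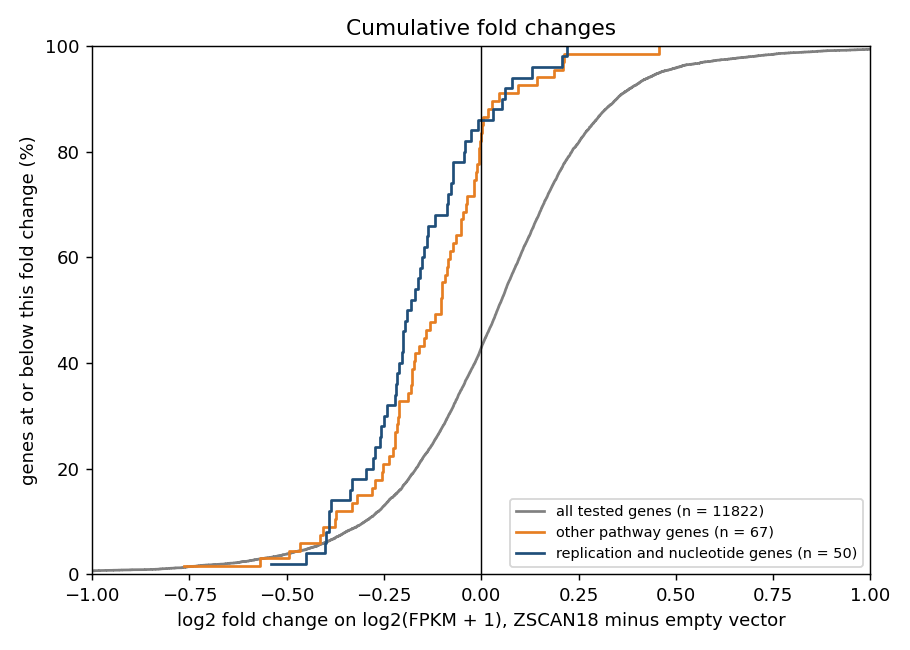
Cumulative share of genes (y axis, percent) at or below each log2 fold change on log2(FPKM + 1) (x axis, ZSCAN18 minus empty vector) for all 11822 tested genes, the 67 other pathway genes and the 50 replication and nucleotide genes. The curve of the 50 genes lies left of that of all genes, with a median of -0.19 against 0.04.

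At the origin, fold changes were negative for 5 of the 6 subunits of the recognition complex, and 0 passed the test. This and the later counts by step stand beside a negative fold change in 42.9% of all tested genes. ORC3 had an FPKM of 13.0 and 13.5 under ZSCAN18 against 16.3 and 15.6 under empty vector (log2 -0.25, SE 0.0596, adjusted p = 0.108 in limma). ORC1, the subunit that is made anew in each cell cycle, had 13.3 and 13.1 under ZSCAN18 against 14.5 and 15.7 under empty vector (log2 -0.18, SE 0.0634). In both the groups did not overlap, and of the other subunits ORC2 (-0.15) and ORC5 (-0.09) lay lower, ORC6 was at -0.01 (0.03 when scaled without mitochondrial genes) and ORC4 at 0.08. The complex as a whole had a median of -0.12, and -0.069 without the second ZSCAN18 library. ORC4 shares exonic sequence with ACVR2A on the opposite strand, and the sources used here do not say whether the authors counted by strand.

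Among the loading factors, geminin was at 7.58 and 7.94 under ZSCAN18 against 9.32 and 8.81 under empty vector (log2 -0.20, SE 0.0656, adjusted p = 0.164 in limma), without overlap. CDT1, the protein it holds back, was at 13.4 and 12.5 under ZSCAN18 against 14.5 and 14.1 under empty vector (log2 -0.14). CDC6, the ATPase that works with the recognition complex and CDT1, was at 41.5 and 56.2 under ZSCAN18 against 44.8 and 49.9 under empty vector. Its ZSCAN18 libraries enclosed the empty vector libraries, so the log2 fold change of 0.03 (SE 0.166) is smaller than the difference within the group; it was -0.01 after median-of-ratios scaling.

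**Figure D2:**
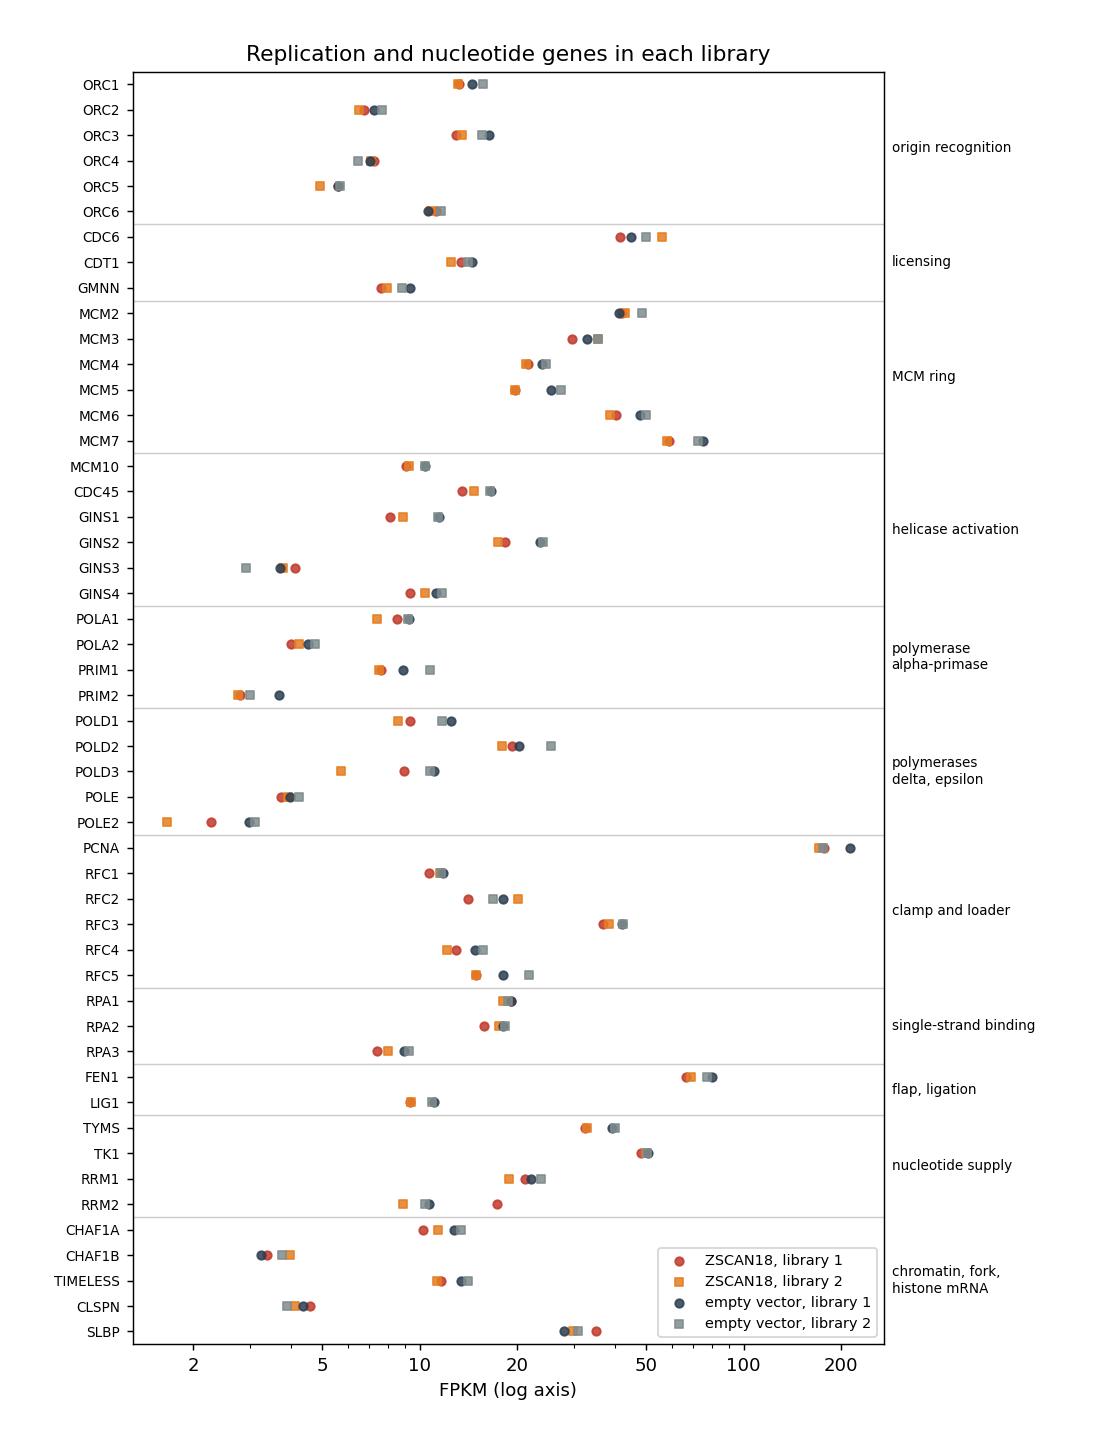
FPKM on a log axis (x axis) of each of the 50 genes (y axis, grouped by step) in the 4 libraries, with red and orange for ZSCAN18 and dark and light grey for the empty vector. For 37 genes both ZSCAN18 symbols lie left of both empty vector symbols; PCNA is the highest gene and POLE2 the lowest.

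The 6 subunits of the MCM ring, which are present once each in the assembled helicase, had fold changes from -0.40 to -0.07, all negative; whether the subunits differ from each other was not tested. MCM7 had an FPKM of 58.7 and 57.8 under ZSCAN18 against 75 and 72.3 under empty vector (log2 -0.33, SE 0.0468, adjusted p = 0.0620 in limma), MCM5 19.7 and 19.7 under ZSCAN18 against 25.5 and 27.2 under empty vector (log2 -0.40, SE 0.0583, adjusted p = 0.0636 in limma), and MCM6 40.5 and 38.6 under ZSCAN18 against 47.7 and 49.8 under empty vector (log2 -0.30, SE 0.0548, adjusted p = 0.0812 in limma). In these 3 the groups were apart by more than the difference between replicates. MCM4 was at 21.5 and 21.2 under ZSCAN18 against 23.8 and 24.6 under empty vector (log2 -0.17, SE 0.0508, adjusted p = 0.146 in limma), also without overlap. MCM2 was at 42.0 and 43.0 under ZSCAN18 against 41.3 and 48.6 under empty vector and MCM3 at 29.5 and 35.5 under ZSCAN18 against 32.9 and 35.6 under empty vector, and in both the groups overlapped (log2 -0.07 and -0.08). Summed over the ring, the FPKM was 211.9 and 215.9 under ZSCAN18 against 246.1 and 258.1 under empty vector, 15.1% lower, and the median log2 fold change was -0.23. The 15.1% is not corrected for the lower total over all genes given above. The ratio of MCM5 to MCM2 was 0.468 and 0.458 under ZSCAN18 against 0.616 and 0.561 under empty vector, and that of MCM7 to MCM2 was 1.40 and 1.34 against 1.82 and 1.49. These ratios were picked after the values were seen, and an exact permutation of 2 against 2 libraries cannot give a two-sided p below 0.333. MCM7 (ENSG00000166508, chromosome 7, 100092728 to 100101940, minus strand) shares exonic sequence with AP4M1 on the other strand, at a mean FPKM of 2.79, and MCM2 with an antisense transcript at 2.39.

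The factors that switch the helicase on had negative fold changes in 5 of 6 genes, with GINS3 as the exception; whether the GINS genes differ from each other was not tested. GINS2 (ENSG00000131153, chromosome 16, 85676198 to 85688954, minus strand) had an FPKM of 18.4 and 17.4 under ZSCAN18 against 23.5 and 24.1 under empty vector (log2 -0.39, SE 0.0563, adjusted p = 0.0636 in limma), and GINS1 8.12 and 8.89 under ZSCAN18 against 11.5 and 11.4 under empty vector (log2 -0.39, SE 0.0688, adjusted p = 0.0772 in limma). GINS3 lay on the other side, at 4.13 and 3.79 under ZSCAN18 against 3.71 and 2.91 under empty vector (log2 0.21, SE 0.121, adjusted p = 0.346 in limma), with the groups apart by less than the difference between the empty vector libraries. GINS4 was at -0.20 (SE 0.0754). The ratio of GINS2 to GINS3 was 4.45 and 4.60 under ZSCAN18 against 6.33 and 8.26 under empty vector, again chosen after the values were seen. GINS3 shares an exonic stretch of up to 394 bases with an antisense transcript at a mean FPKM of 1.31, beside its own 2.91 to 3.71 with the empty vector. CDC45 was at 13.6 and 14.7 under ZSCAN18 against 16.6 and 16.5 under empty vector (log2 -0.22, SE 0.0637), and MCM10, which helps the ring to open the DNA, at 9.10 and 9.29 under ZSCAN18 against 10.4 and 10.4 under empty vector (log2 -0.16, SE 0.0558). Both were without overlap, and the step as a whole had a median of -0.21.

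**Figure D3:**
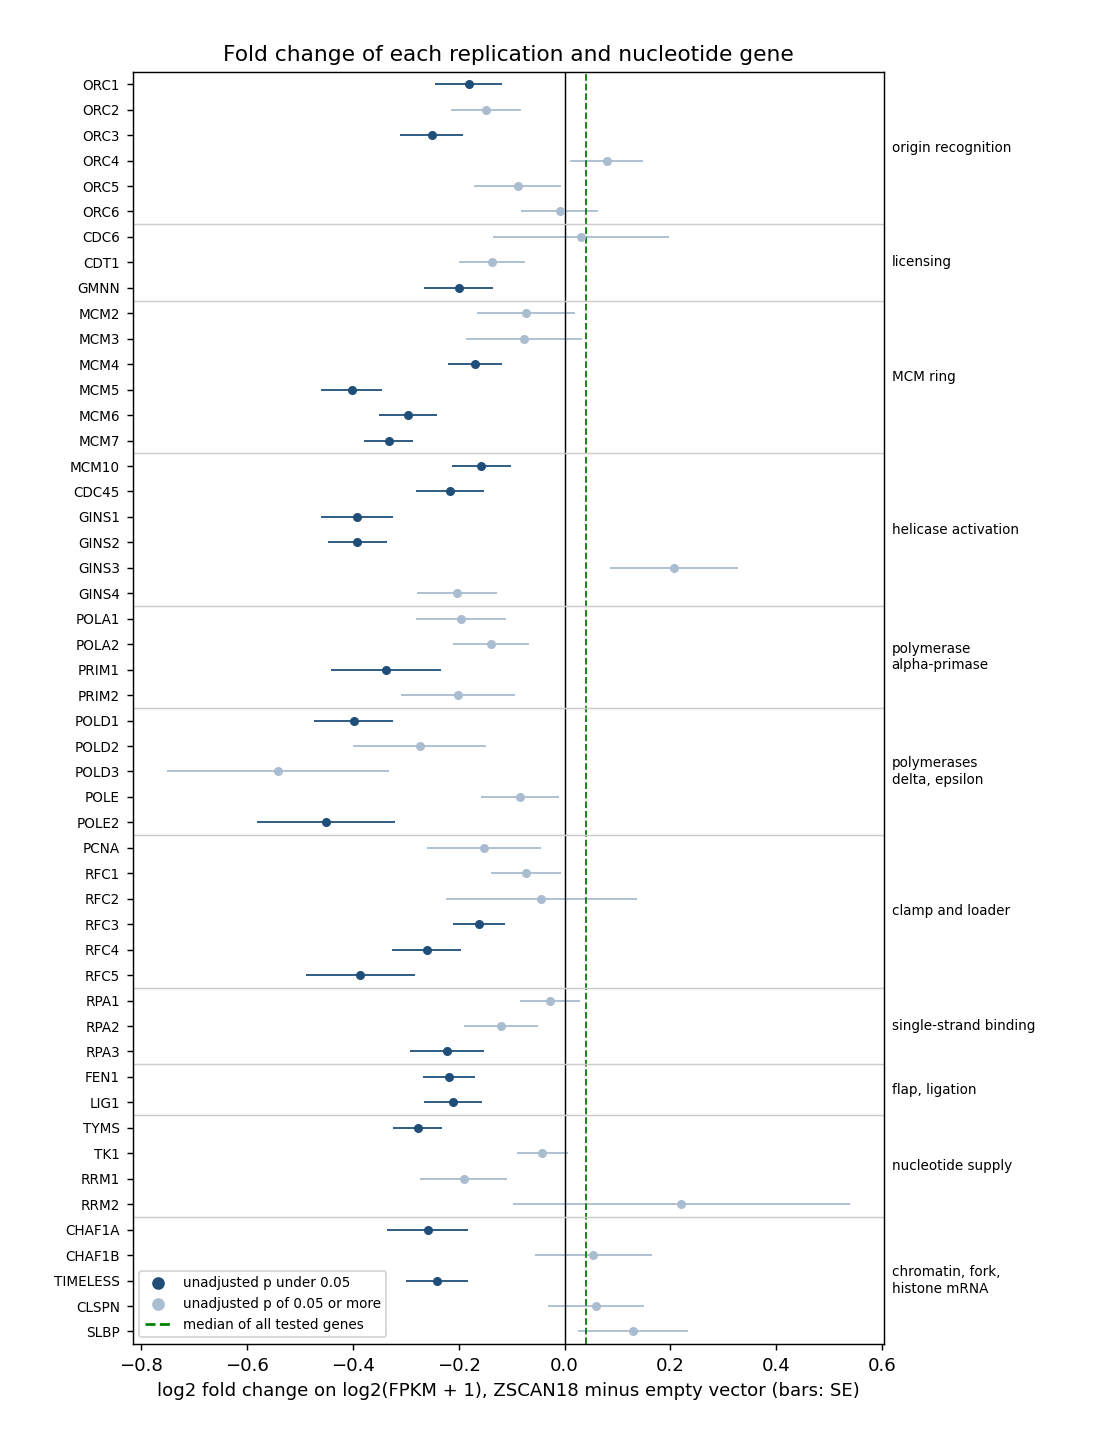
Log2 fold change on log2(FPKM + 1) (x axis, ZSCAN18 minus empty vector, bars are 1 SE from limma) of the 50 genes by step, with dark points for an unadjusted p under 0.05 and a dashed line at the median of all tested genes, 0.04. All 23 dark points lie left of 0, and 7 genes lie right of it.

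All 9 genes of the replicative polymerases had negative fold changes and groups that did not overlap. Of all tested genes, 42.9% had a negative fold change and 24.4% were lower without overlap. At an unadjusted p under 0.05 in limma, 1 of 4 genes of alpha-primase and 2 of 5 of delta and epsilon were lower. In polymerase alpha with primase, PRIM1, the catalytic subunit of primase, was at 7.59 and 7.5 under ZSCAN18 against 8.91 and 10.8 under empty vector (log2 -0.34, SE 0.104, adjusted p = 0.151 in limma). It shares an exonic stretch of up to 33 bases with NACA on the same strand, which has a mean FPKM of 31.5. PRIM2 was at -0.20, POLA1, the catalytic subunit of the polymerase, at -0.20 and POLA2 at -0.14, each with an unadjusted p above 0.05. The summed FPKM of these 4 was 22.9 and 21.9 under ZSCAN18 against 26.4 and 27.7 under empty vector. POLD1, the catalytic subunit of polymerase delta, was at 9.35 and 8.55 under ZSCAN18 against 12.5 and 11.7 under empty vector (log2 -0.40, SE 0.0742, adjusted p = 0.0813 in limma). POLE2, the second subunit of polymerase epsilon and the lowest member in level, was at 2.28 and 1.66 under ZSCAN18 against 2.97 and 3.10 under empty vector (log2 -0.45, SE 0.131). POLD3, an accessory subunit, had a log2 fold change of -0.54, at 8.96 and 5.70 under ZSCAN18 against 11.1 and 10.7 under empty vector, with an SE of 0.210; leaving out the first ZSCAN18 library gave -0.83, and leaving out the second gave -0.25. POLD2 was at -0.27 and POLE, the catalytic subunit of epsilon, at -0.08 (SE 0.0736). Scaled without mitochondrial genes, POLE was at -0.048 and its groups overlapped. The median over polymerases delta and epsilon was -0.40, and -0.25 without the second ZSCAN18 library.

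At the clamp, PCNA was the most abundant member, at 177 and 171 under ZSCAN18 against 213 and 175 under empty vector, and the groups overlapped (log2 -0.15, SE 0.107); under quantile normalization its value was 0.01, and it was -0.013 without the first empty vector library and -0.29 without the second. Of the clamp loader, RFC5 was at 15.0 and 14.9 under ZSCAN18 against 18.0 and 21.7 under empty vector (log2 -0.39, SE 0.104, adjusted p = 0.128 in limma), RFC4 at 13.0 and 12.2 under ZSCAN18 against 14.8 and 15.7 under empty vector (log2 -0.26, SE 0.0658) and RFC3 at 36.9 and 38.4 under ZSCAN18 against 42.1 and 42.4 under empty vector (log2 -0.16, SE 0.0489). These 3 small subunits were without overlap. The large subunit RFC1 was at -0.07, and RFC2 was at 14.1 and 20.1 under ZSCAN18 against 18.0 and 16.8 under empty vector, with the ZSCAN18 libraries on either side of the others (log2 -0.04, and 6.9e-05 when scaled without mitochondrial genes). RFC5 shares an exonic stretch of up to 186 bases with WSB2 on the opposite strand, which has a mean FPKM of 32.8, above its own.

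Of the 3 subunits of RPA, which coats single-stranded DNA, RPA3, the smallest, was at 7.36 and 8.01 under ZSCAN18 against 8.98 and 9.28 under empty vector (log2 -0.22, SE 0.0698), RPA2 was at -0.12, and the large subunit RPA1 was at -0.03 (SE 0.0569, and 0.02 when scaled without mitochondrial genes) with overlapping groups. On the lagging strand, the flap nuclease FEN1 was at 66.2 and 68.8 under ZSCAN18 against 80.1 and 77.3 under empty vector (log2 -0.22, SE 0.0494, adjusted p = 0.102 in limma). DNA ligase LIG1 was at 9.32 and 9.41 under ZSCAN18 against 11.1 and 10.9 under empty vector (log2 -0.21, SE 0.0552, adjusted p = 0.124 in limma). Neither gene overlapped between the groups.

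In nucleotide supply, fold changes were negative for 3 of 4 genes, and TYMS had the smallest p. TYMS, which makes dTMP from dUMP (ENSG00000176890, chromosome 18, 657653 to 673578, plus strand), was at 32.3 and 32.8 under ZSCAN18 against 39.3 and 40.0 under empty vector (log2 -0.28, SE 0.0467, adjusted p = 0.0736 in limma). It shares an exonic stretch of up to 719 bases with ENOSF1, on the opposite strand at a mean FPKM of 2.62. TK1, which makes dTMP from thymidine, was at 48.1 and 50.04 under ZSCAN18 against 50.6 and 50.5 under empty vector (log2 -0.04, SE 0.0477, and 0.0035 when scaled without mitochondrial genes). Of ribonucleotide reductase, which makes all deoxyribonucleotides, the large subunit RRM1 was at 21.1 and 18.8 under ZSCAN18 against 22.1 and 23.8 under empty vector (log2 -0.19). The small subunit RRM2 was at 17.3 and 8.89 under ZSCAN18 against 10.7 and 10.4 under empty vector, so that 1 ZSCAN18 library stood above and 1 below the empty vector. Its log2 fold change of 0.22 (SE 0.318) became -0.22 without the first ZSCAN18 library, and the ratio of RRM2 to RRM1 was 0.821 in that library and 0.437 to 0.486 in the other 3.

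The step of chromatin assembly, fork protection and histone mRNA had a median of 0.05, the 1 step with a median above 0. This median was below 0 when any 1 library was left out (-0.038 to -0.0034). With the stricter filter it was -0.24, because that filter leaves out CHAF1B and CLSPN, which both had positive fold changes. CHAF1A, the large subunit of the factor that places histones on new DNA, was at 10.2 and 11.4 under ZSCAN18 against 12.8 and 13.5 under empty vector (log2 -0.26, SE 0.0766), while its partner CHAF1B was at 0.05 with overlapping groups. TIMELESS, which steadies the fork, was at 11.7 and 11.3 under ZSCAN18 against 13.5 and 14.1 under empty vector (log2 -0.24, SE 0.0584, adjusted p = 0.110 in limma). CLSPN, the checkpoint adaptor claspin, was at 0.06 and SLBP, which binds the stem-loop of histone mRNA, at 34.9 and 29.7 under ZSCAN18 against 28.0 and 30.8 under empty vector (log2 0.13, SE 0.104). SLBP and CLSPN overlapped between the groups, and a difference in either direction was not detectable in them.

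Beyond the members, 67 other genes of replication and nucleotide synthesis were examined, and all were tested. As among the members, 0 passed at an adjusted p under 0.05 in limma, beside 1.77% of all tested genes. A negative fold change was found for 56, beside 42.9% of all tested genes, and the median was -0.10. At an unadjusted p under 0.05 in limma 17 were lower and 3 higher, beside 11% and 15.9% of all tested genes. These 20 genes became 14 without the first and 11 without the second ZSCAN18 library, 9 without the first and 8 without the second empty vector library, and 13 with the replicate block. In pyrimidine and folate metabolism 5 of 13 were lower at that level, with a median of -0.21. DTYMK, the kinase that turns dTMP into dTDP, was at 15.2 and 14.8 under ZSCAN18 against 19.9 and 20.5 under empty vector (log2 -0.41, SE 0.0532, adjusted p = 0.0576 in limma). MTHFD1, a folate enzyme, was at 15.1 and 14.1 under ZSCAN18 against 19.6 and 18.9 under empty vector (log2 -0.37, SE 0.0621, adjusted p = 0.0727 in limma), and DUT, which removes dUTP, was at -0.32 (SE 0.0883).

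In purine synthesis 6 of 10 genes were lower and 1 higher at an unadjusted p under 0.05 in limma, beside 11% and 15.9% of all tested genes; these genes are part of the 20 whose number fell to 8 to 14 without 1 library. IMPDH2, the rate-limiting enzyme of guanine nucleotide synthesis, was at 36.5 and 38.2 under ZSCAN18 against 43.3 and 46.3 under empty vector (log2 -0.26, SE 0.0595), GMPS, which completes GMP, at -0.21 and GART, a trifunctional enzyme, at -0.18. PPAT, which starts the pathway, was the gene on the other side, at 14.8 and 14.0 under ZSCAN18 against 12.7 and 12.3 under empty vector (log2 0.19, SE 0.0595; named after its values were seen). Among the regulators of nucleotide pools RRM2B, the p53-inducible small subunit of ribonucleotide reductase, was at 7.43 and 7.25 under ZSCAN18 against 5.37 and 4.79 under empty vector (log2 0.46, SE 0.0781, adjusted p = 0.0755 in limma), the highest of the 67. NME1, a nucleoside diphosphate kinase whose exons are shared with a readthrough transcript, was at -0.22, and SAMHD1, which breaks down deoxyribonucleotides, at 0.21 with overlapping groups.

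Of the genes of origin firing 13 of 14 were negative, beside 42.9% of all tested genes, with a median of -0.10. RECQL4, a helicase needed for initiation, was at 4.98 and 5.5 under ZSCAN18 against 6.80 and 8.87 under empty vector (log2 -0.49, SE 0.141, adjusted p = 0.137 in limma), and was the 1 gene of this group with an unadjusted p under 0.05. WDHD1 was at -0.28 and DONSON at -0.22. CHTF18, of the alternative clamp loader that serves sister chromatid cohesion, was at 3.13 and 3.38 under ZSCAN18 against 4.58 and 5.18 under empty vector (log2 -0.47, SE 0.0891, adjusted p = 0.0827 in limma). ATAD5, which unloads PCNA, was at -0.27 and the checkpoint kinase CHEK1 at -0.19. RNASEH2A, the catalytic subunit of RNase H2, was at 16.2 and 16.0 under ZSCAN18 against 18.7 and 19.2 under empty vector (log2 -0.22, SE 0.0519). TOP1, which relaxes DNA ahead of the fork, was higher without overlap, at 61.6 and 60.4 under ZSCAN18 against 55.9 and 54.4 under empty vector (log2 0.14, SE 0.0462), and MCM8 was at -0.17. Of the histone chaperones ASF1B was at -0.24, NASP at -0.23 and RBBP4 at -0.21.

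**Figure D4:**
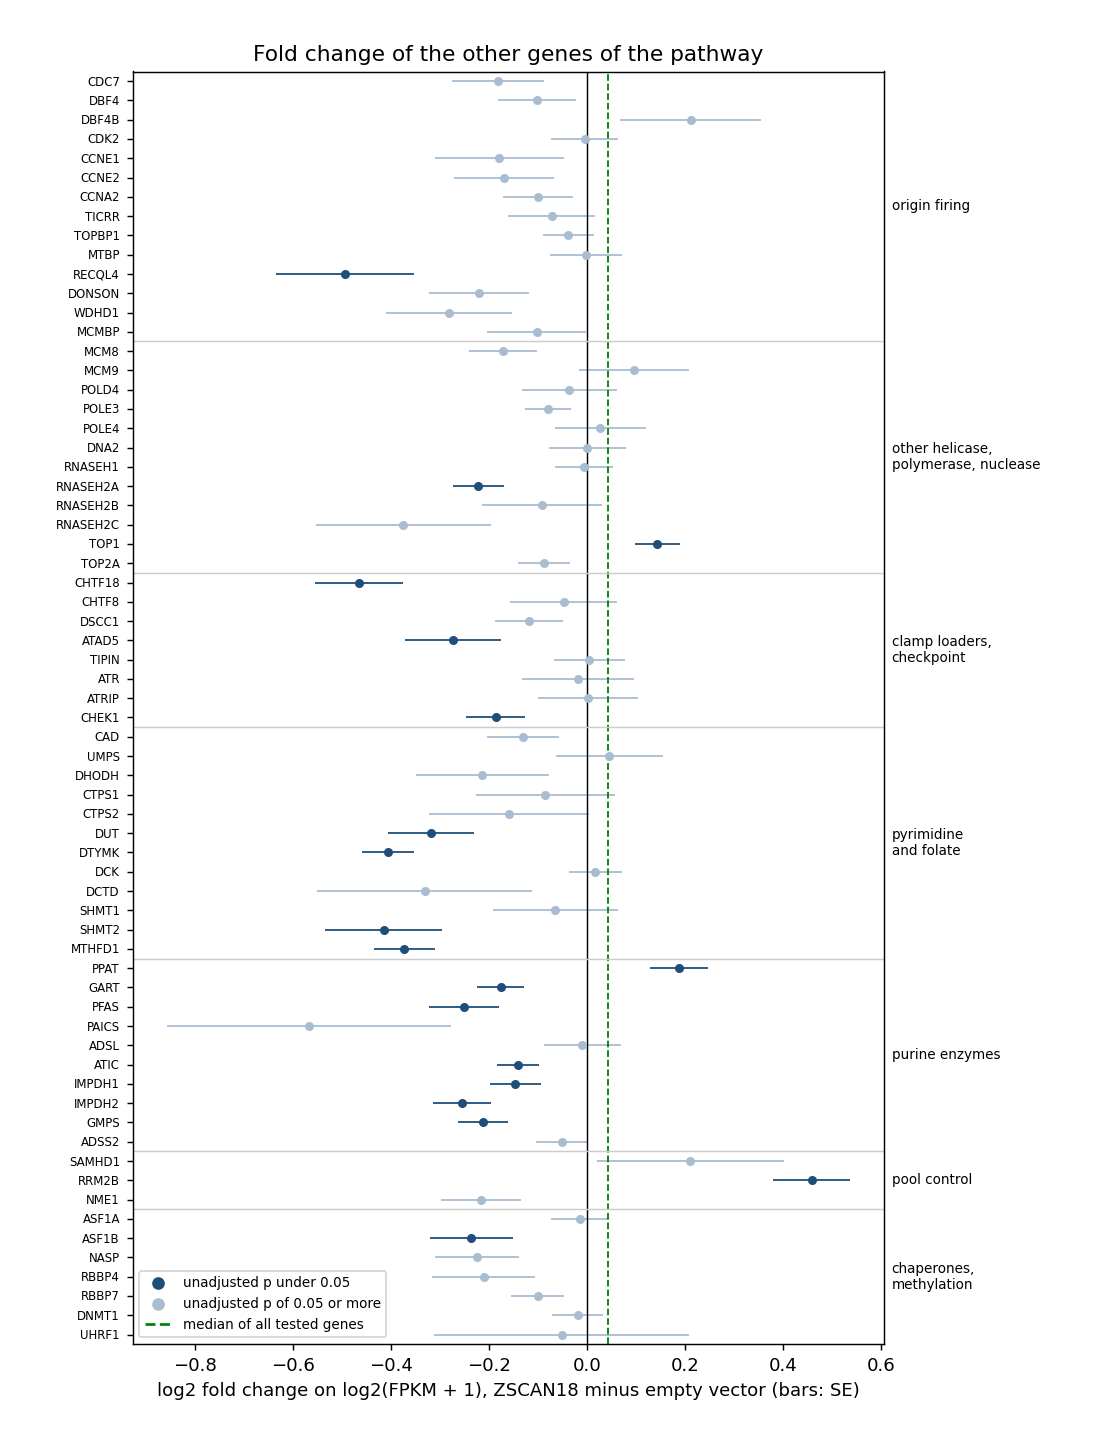
Log2 fold change on log2(FPKM + 1) (x axis, ZSCAN18 minus empty vector, bars are 1 SE from limma) of 66 of the 67 other pathway genes by group, drawn as for the members. Most points lie left of 0. Among the genes drawn, PAICS is farthest left at -0.57 and RRM2B farthest right at 0.46. The empty vector libraries of PAICS differ by 0.81, which is more than its fold change (SE 0.290).

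The absence of calls depends on the filter. With genes at an FPKM of at least 5 in 2 libraries alone, 3 members passed, namely MCM5 (adjusted p = 0.0458 in limma), MCM7 (0.0456) and GINS2 (0.0456), and DTYMK among the other genes. Genes of the mitochondrial genome held 33.7 to 34.1% of all FPKM with ZSCAN18 and 34.3 to 35.2% with the empty vector. Scaled without them, the median over the members was -0.14, beside 0.08 over all tested genes. With that scaling 39 members had a negative fold change, beside 36.8% of all tested genes. At an unadjusted p under 0.05 in limma, 16 members were then lower and 0 higher. Exons of 15 members overlap an exon of a gene at a mean FPKM of at least 1, and pseudogenes named after 8 members were listed at 0.0505 or less. Other pathway genes share exonic sequence too. Among them are CHTF18 with RPUSD1 (mean FPKM 9.66), CHEK1 with STT3A (22.1), and DONSON and GART with SON (25.1). A pseudogene named after RBBP4 was at 3.79.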

How the data were processed

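RNA sequencing was carried out on 4 libraries, 2 per group. The table deposited by the authors holds, per the file headers, 60612 genes with the FPKM of each library, a linear fold change (ratio), its log2 value, a p-value and a q-value. Named in the submitters' processing notes are HISAT2 2.0.4, StringTie 1.3.4d, DESeq2, edgeR 3.2.5, FastQC 0.10.1 and cutadapt 1.9, with no role for any. Build and strand setting were not given in the sources used here. Among the identifiers 58394 are in GENCODE release 29 (GRCh38), where all 50 members start within 100 kb of the deposited start and 14 have the same start and end; coordinates are therefore given as GRCh38. Promoter sequences are from RefSeq. The deposited log2 fold is the log2 ratio of summed FPKM: 0 genes differed from it by more than 0.001. The ZSCAN18 columns match no sample title and were assigned by elimination, and their numbers are those of the columns.

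A count model does not apply to FPKM. Depth rests on 22313 single-exon genes, taking the most common value of FPKM times length in kb between 0.02 and 0.1 as 1 fragment. The share of low values within 0.02 of whole multiples was 24.6 to 25.3%, so reads could not be recovered and the depths rest on this assumption. Genes that reached an FPKM of 1 in 2 or more libraries were tested with limma 3.58.1 (R 4.3.3) on log2(FPKM + 1), with eBayes and an intensity trend (residual degrees of freedom 2, prior 2.01). The two-sided p-values were adjusted over the 11822 tested genes with the Benjamini-Hochberg method, and fold changes on this scale understate the change of low genes. The fit was tested on simulated data. The members, lists and tests were chosen with earlier results of these data known. All 50 members may be named; per-library values are given, by rule, for those with an unadjusted p under 0.05 and the smallest p in a step, and, chosen after their values were seen, for CDC6, CDT1, MCM2, MCM3, GINS3, POLD3, PCNA, RFC2, TK1, RRM1, RRM2 and SLBP, and up to 3 genes per group of the other pathway genes are named by p. Alternatives changed the pseudocount, filter, scaling, variance trend, libraries and replicate block. Column numbers 1 and 2 do not pair the samples by any label. Values of 1 of the other pathway genes and of 1 marker are not reported here.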

Additional observations from a re-analysis of the deposited data

How the results depend on the processing

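The median over the members kept its sign under every alternative run: -0.20 with a pseudocount of 0.1, -0.23 after median-of-ratios scaling, -0.14 when scaled without mitochondrial genes and -0.16 to -0.19 when each library was left out in turn. The number of members past the test was 0 in all of them but the stricter filter, with 3. Members at an unadjusted p under 0.05 in limma, 23 in all, numbered 12 to 17 without 1 library. Among all tested genes, 209 changed as reported (94 higher and 115 lower; 93 and 187 after median-of-ratios scaling), 370 with the stricter filter, 1 without a filter, 99 without the intensity trend and 0 to 1 when a library was left out. With the replicate block 1 gene changed, 0 members passed, 19 had an unadjusted p under 0.05 and the median of the members was unchanged at -0.19; same-numbered libraries deviated together with a correlation of 0.03 over all tested genes and 0.115 over the members, and no label pairs the numbers. Of the other pathway genes 1 passed with the stricter filter and 1 after median-of-ratios scaling, DTYMK in both.

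Of 593 member values under an alternative 20 changed sign, all in 11 members, 9 of which were at less than 0.1 in size. Without 1 library the range was -0.18 to 0.24 for CDC6, -0.074 to 0.056 for ORC6, -0.187 to 0.041 for MCM2, -0.207 to 0.053 for MCM3, -0.28 to 0.20 for RFC2, -0.064 to 0.010 for RPA1, -0.22 to 0.67 for RRM2, -0.04 to 0.15 for CHAF1B and -0.0049 to 0.12 for CLSPN. Without a change of sign, the value moved by over 1.5 times for PCNA (-0.29 to -0.013), POLD3 (-0.83 to -0.25), POLD2 (-0.43 to -0.12), PRIM2 (-0.32 to -0.087), GINS3 (0.073 to 0.34), SLBP (0.016 to 0.24), POLE2 (-0.60 to -0.30), PRIM1 (-0.46 to -0.21), RRM1 (-0.27 to -0.11), POLA1 (-0.29 to -0.10), GINS4 (-0.27 to -0.13), CDT1 (-0.19 to -0.089), ORC4 (0.029 to 0.13), ORC5 (-0.17 to -0.012), RPA2 (-0.19 to -0.050), RFC1 (-0.13 to -0.019), POLE (-0.12 to -0.049) and TK1 (-0.070 to -0.014). Changed values under scaling were -0.013 (CDC6), 0.033 (ORC6), 6.9e-05 (RFC2), 0.017 (RPA1), 0.0035 (TK1) and 0.012 (PCNA). The median of the chromatin group was -0.24 with the stricter filter, which leaves out CHAF1B and CLSPN, and -0.038 to -0.0034 without 1 library. Apart from the genes left out by that filter, the cause of these changes was not tested.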
